A study of Physcomitrium patens with 6 samples.

Results

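The moss *Physcomitrium patens* holds 98 genes that were already transcribed in wild type protonema and stood at least 2 times higher in protonema of the *Ppddm1* knockout. These genes are described here. They were chosen by their measured levels in the 6 libraries of the study, from the 31967 gene rows of the count table. Levels are CPM, the reads of a gene per 1000000 reads counted in its library. A gene had to have a mean of at least 2 CPM over the 3 wild type libraries, which 16919 genes had (the expressed genes below), a level in every *Ppddm1* library above that in every wild type library, and a *Ppddm1* mean of at least 2 times the wild type mean. The higher level in *Ppddm1* is therefore the criterion itself and not a finding. Fitted changes, intervals and calls on the same contrast are given below as descriptions of the chosen genes, and nothing is supported with them. In bulk tissue, fewer cells of a type and less RNA per cell cannot be told apart, and this holds for every level below.

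DDM1 is a chromatin remodeler of the Snf2 family. In plants it lets DNA methyltransferases reach DNA that is wrapped in nucleosomes, above all in the heterochromatin of transposable elements (TEs), and it is best known for keeping TEs methylated and silent.

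Wild type and *Ppddm1* were both of the strain given in the labels as Grandsen. The plants were grown for 7 days as protonema, the branching filaments that a moss forms before its leafy shoots, on BCDAT medium at 25 °C with long days. In *Ppddm1* the coding region of PpDDM1 was replaced with a Zeocin resistance cassette, and the study describes the knockout as 1 plant found after selection, so a difference between genotypes is a difference between that line and wild type, which was not transformed. Each genotype had 3 libraries of polyA RNA. By the labels, batch 2 holds replicate 3 of both genotypes and batch 1 the other replicates, and what the batch stands for is not said. The libraries were repeated RNA extractions, and separate cultures are not stated, so p-values measure only the spread between these libraries, which may be technical.

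The libraries held from 2784259 to 10536543 counts, so that 2 CPM stood for 5.57 counts in the shallowest library and 21.1 in the deepest. PpDDM1 (Pp3c17_19520) had 15.1, 18.3 and 26.5 CPM in wild type replicates 1, 2 and 3 and 1.06, 0.974 and 1.04 CPM in the *Ppddm1* replicates, as the labels require. Replicate 1 stood apart in each genotype. Over the expressed genes its correlation with the other libraries of its genotype was 0.9579 and 0.9566 in wild type and 0.9663 and 0.9770 in *Ppddm1*, against 0.9840 and 0.9834 between replicates 2 and 3 (Pearson r of log2(CPM + 0.5), across genes, which are not independent replicates). The files used here do not pair gene identifiers with names or functions, so the label protonema could not be set against marker genes, and the members other than Pp3c5_12950 and Pp3c6_17399 are given by rank and chromosome.

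Most members were weakly transcribed genes that were a little over 2 times higher in *Ppddm1*. Their wild type means ran from 2.01 to 70.2 CPM with a median of 5.08 CPM, while the expressed genes as a whole had a median of 24.9 CPM. In *Ppddm1* the members' means ran from 5.15 to 141 CPM with a median of 14.3 CPM. The ratio of the *Ppddm1* mean to the wild type mean had a median of 2.39 and quartiles of 2.14 and 2.93, beside a median of 1.03 over all expressed genes. It lay between 2 and 2.5 in 56 members, between 2.5 and 3 in 19, between 3 and 4 in 17 and above 4 in 6.

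**Figure D1:**
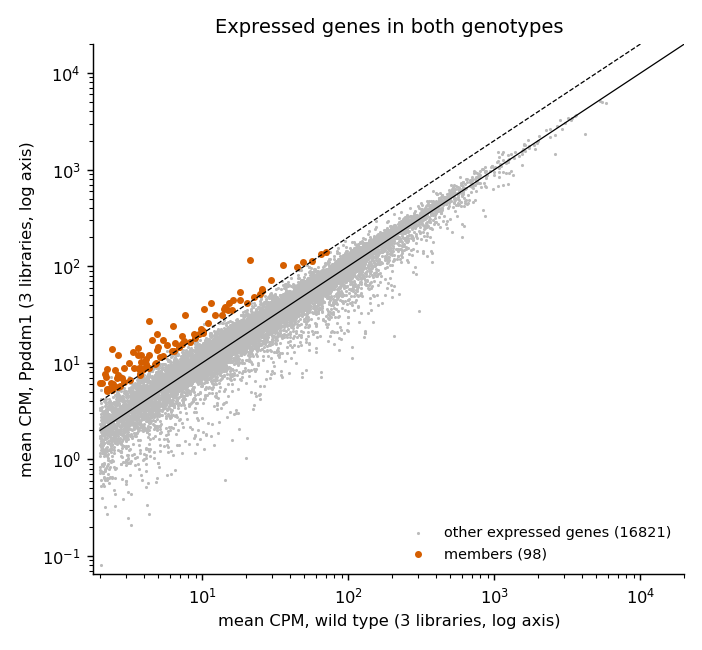
Mean CPM in wild type (x axis) and in *Ppddm1* (y axis) for the expressed genes, both on log axes, with the 98 members in orange, the solid line at equal levels and the dashed line at 2 times the wild type level. The members lie on or above the dashed line by definition, and none has a wild type mean above 70.2 CPM.

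The member with the highest ratio was Pp3c5_12950, on chromosome 5. It had 5.03, 3.04 and 4.93 CPM in wild type replicates 1 to 3 and 11.7, 39.0 and 30.4 CPM in the *Ppddm1* replicates. The lowest *Ppddm1* library was thus 2.32 times the highest wild type library, and *Ppddm1* replicate 1 lay well below the other *Ppddm1* libraries. The means were 4.34 ± 1.12 CPM in wild type against 27.0 ± 14.0 CPM in *Ppddm1* (SD, n = 3 each), a ratio of 6.23. The fitted log2 fold change was 2.62 with a standard error of 0.43. These values rest on 57 wild type reads and 524 *Ppddm1* reads.

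Pp3c6_17399, on chromosome 6, had the largest gain in CPM of all members and ranked 3 by ratio. Wild type replicates 1 to 3 had 22.6, 19.9 and 20.7 CPM, while *Ppddm1* replicates 1 to 3 had 65.8, 136 and 142 CPM. The wild type mean was 21.1 ± 1.40 CPM and the *Ppddm1* mean 115 ± 42.5 CPM (SD, n = 3 each). The wild type libraries were thus close together, and among the *Ppddm1* libraries replicate 1 was far below the others. The ratio was 5.44 and the fitted log2 fold change 2.43 (standard error 0.27). The 5 members with the largest gains in mean CPM held 24.2% of the summed gain of all members, and the 20 largest held 56.7%.

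The other members with ratios above 4 differed in how steady they were. The member ranked 2 by ratio, on chromosome 19, had 1.44, 3.98 and 1.81 CPM in wild type against 9.56, 17.1 and 14.6 CPM in *Ppddm1*, from 32 and 260 reads in all. The member ranked 4, also on chromosome 6, had 2.51, 2.81 and 2.63 CPM against 10.1, 17.3 and 9.21 CPM. Both were low in every wild type library, and in both *Ppddm1* replicate 2 was the highest. Rank 5, on chromosome 1, had 1.44 CPM in wild type replicate 1 but 9.83 and 11.5 CPM in replicates 2 and 3, so the wild type libraries differed among themselves more, relative to their mean, than in any other of these 6 genes. In *Ppddm1* it had 20.7, 39.5 and 34.5 CPM. Rank 6, on chromosome 23, was steady within each genotype, with 5.03, 4.91 and 4.77 CPM in wild type against 17.3, 20.7 and 21.3 CPM in *Ppddm1*. Its lowest *Ppddm1* library was 3.43 times its highest wild type library, the widest gap of all 98 members.

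**Figure D2:**
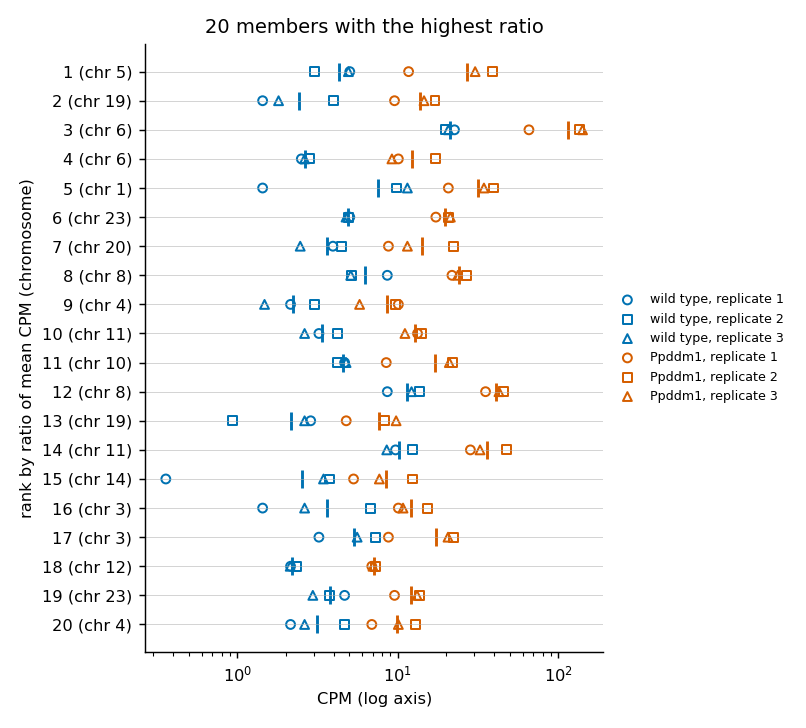
CPM (log axis) in each library for the 20 members with the highest ratio of means, one row per member with its rank and chromosome, wild type in blue and *Ppddm1* in orange, symbols for the replicate and vertical ticks for the genotype means. *Ppddm1* replicate 1 (orange circle) is the lowest *Ppddm1* library in 17 of the 20 rows.

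Few members were abundant. Only 13 had a wild type mean of at least 20 CPM, and none was among the 200 genes with the highest wild type means. The most abundant member, on chromosome 13, had 67.2, 73.0 and 70.6 CPM in wild type against 104, 184 and 134 CPM in *Ppddm1*. It was also the member nearest to the fold threshold. Another abundant member, on chromosome 11, had 45.3, 69.7 and 79.0 CPM in wild type against 82.0, 189 and 129 CPM in *Ppddm1*, so that its lowest *Ppddm1* library was only 1.04 times its highest wild type library. An abundant member on chromosome 8 went the other way in wild type, with 74.7 CPM in replicate 1 and 38.1 and 34.4 CPM in replicates 2 and 3, against 120, 85.0 and 130 CPM in *Ppddm1*. A member on chromosome 7 was steadier in wild type than these, with 35.2, 35.6 and 37.0 CPM in wild type against 72.7, 125 and 111 CPM in *Ppddm1*, a ratio of 2.86.

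Summed over all 98 members, the level was 979, 1025 and 1027 CPM in wild type replicates 1, 2 and 3 and 2115, 2862 and 2544 CPM in the *Ppddm1* replicates. The wild type libraries were close to each other and the *Ppddm1* libraries were not. The mean sums were 1011 ± 26.9 CPM and 2507 ± 375 CPM (SD, n = 3 each), a ratio of 2.48 that follows from the choice of members. Of all counts, the members took 0.101% in wild type, against 0.251% in *Ppddm1*. Their gain was 1.83% of the gain summed over the 13069 genes with a higher mean in *Ppddm1*. Without the 5 members with the highest levels the ratio of the sums was 2.63.

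How far a member stood above wild type varied with the *Ppddm1* library. Relative to each member's wild type mean, the median level was 2.11 in *Ppddm1* replicate 1, 2.66 in replicate 2 and 2.49 in replicate 3, and the members at 2 times the wild type mean or more numbered 56, 88 and 77. Replicate 1 was the lowest *Ppddm1* library in 66 of the 98 members, replicate 2 in 9 and replicate 3 in 23. Over the other expressed genes these shares were 42.0%, 32.9% and 25.1%. The median ratio of replicate 1 to replicate 2 within *Ppddm1* was 0.761 over the members and 0.981 over the other expressed genes. In wild type, replicate 1 was the lowest library in 41 members, replicate 2 in 23 and replicate 3 in 34, beside 44.5%, 28.8% and 26.7% of the other expressed genes. These ratios set libraries of 1 genotype against each other, but the libraries also chose the members, so they are given without a test. In 10 members *Ppddm1* replicate 1 was at or below 0.5 times the mean of replicates 2 and 3, which was so in 3.03% of the other expressed genes. Pp3c5_12950 (0.337) and Pp3c6_17399 (0.473) were among them. The lowest such value, 0.335, was that of a member on chromosome 11 with 2.65, 8.53 and 7.31 CPM in the *Ppddm1* libraries. Whether the lower members in this library go with its standing apart over all genes was not tested. The members and the other expressed genes were not matched for level in these comparisons, and most members had low wild type levels.

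**Figure D3:**
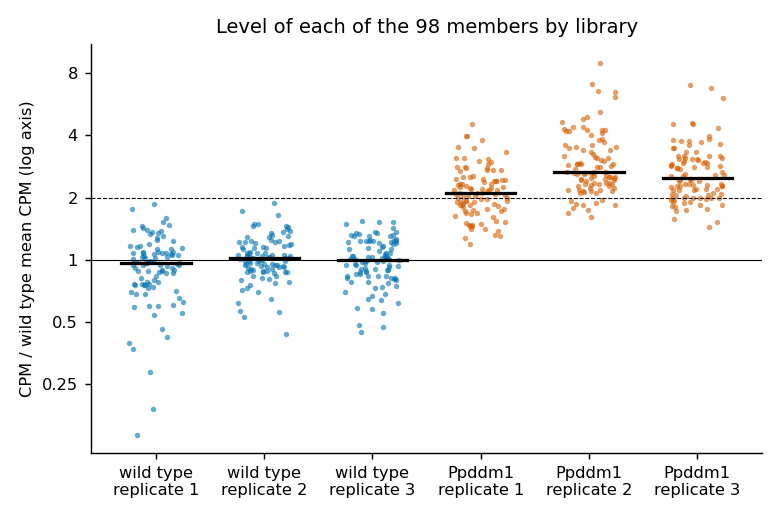
Level of each member in each library, divided by the member's wild type mean (log axis), with black bars at the medians over the 98 members, the solid line at 1 and the dashed line at 2. The medians of the *Ppddm1* libraries are 2.11, 2.66 and 2.49, and only 56 members reach the dashed line in *Ppddm1* replicate 1.

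With libraries of the same replicate number set against each other, 61 members were 2-fold higher or more in replicate 1, 85 in replicate 2 and 72 in replicate 3. The median ratios were 2.15, 2.78 and 2.66, while over the other expressed genes they were 1.03, 1.04 and 1.01. In 35 members the ratio was at least 2 in all 3 comparisons and in 76 it was at least 1.5. The gap between genotypes, the lowest *Ppddm1* level divided by the highest wild type level, had a median of 1.52. It was at least 2 in 14 members, at least 1.5 in 52 and at least 1.1 in 90, and it fell to 1.00 in the closest.

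A small group of members was nearly level within each genotype. The coefficient of variation over the 3 libraries was under 10% in both genotypes in 5 members and in 15.9% of the other expressed genes. One of them, on chromosome 20, had 43.8, 47.7 and 41.8 CPM in wild type against 88.1, 105 and 101 CPM in *Ppddm1*, from 580 and 1824 reads. A second, on chromosome 12, had 2.15, 2.34 and 2.14 CPM and then 6.90, 7.31 and 7.02 CPM, a ratio of 3.20, but from only 29 and 130 reads. Another, on chromosome 9, had 7.18, 7.25 and 6.41 CPM against 15.1, 15.1 and 13.6 CPM. These genes were picked for their small spread among genes already chosen for a 2-fold difference, so the distance between their genotypes is no result. As a group the members varied more, with a median coefficient of variation of 25.9% in wild type and 22.3% in *Ppddm1*, beside 14.3% and 13.2% over the other expressed genes. Among the other expressed genes the spread was larger at low levels. Most members lay at low levels, so the same could not be read among them. Among the 85 members with a wild type mean under 20 CPM the medians were 28.0% and 22.5%, and among other expressed genes of that range 21.0% and 17.7%.

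The share of expressed genes that met the rule fell with the wild type level. It was 2.78% (49 of 1763) between 2 and 5 CPM, 1.00% (20 of 1993) between 5 and 10 CPM, 0.468% (16 of 3420) between 10 and 20 CPM, 0.193% (10 of 5188) between 20 and 50 CPM and 0.117% (3 of 2562) between 50 and 100 CPM. None of the 1993 genes at 100 CPM or more met it. Counting error is largest where the levels are lowest, and a low wild type mean by itself raises the ratio, so these shares are not shares of genes that differ between the genotypes. No member had a library without reads, and the lowest count was 1. In 37 members at least 1 library had fewer than 10 counts, and in 10 members fewer than 5. From reads pooled by genotype, the ratio was at least 2 in 81 members and the lower bound of its 95% interval was above 2 in 40, above 1.5 in 87 and no lower than 1.26 in any (exact Clopper-Pearson interval of the share of reads from *Ppddm1*, which covers counting error only). These intervals come from the libraries that chose the genes, so bounds above 1 were largely fixed by the rule.

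**Figure D4:**
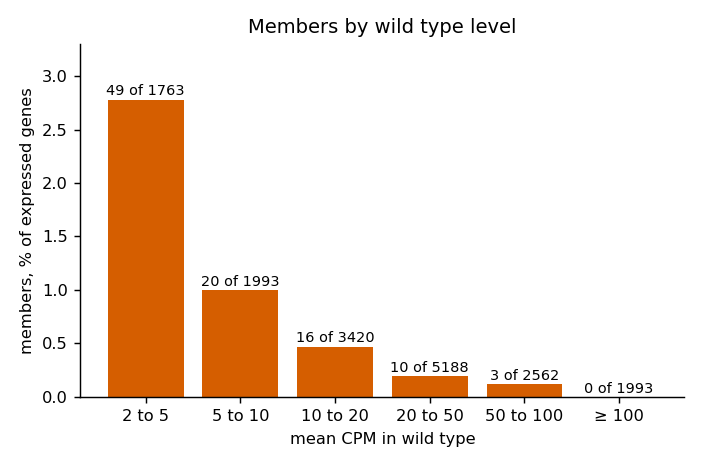
Members as a percentage of the expressed genes (y axis, starting at 0) in 6 ranges of the wild type mean in CPM (x axis), with the number of members and of expressed genes above each bar. The bars go from 2.78% at 2 to 5 CPM down to 0 of 1993 genes at 100 CPM or more.

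The thresholds cut through a continuous distribution. The 3 members just inside the fold threshold had ratios of 2.001, 2.004 and 2.005, and the 3 genes just outside it, with the same lack of overlap, had 1.992, 1.990 and 1.982. A further 321 expressed genes without overlap were between 1.5 and 2 times higher in *Ppddm1*. The 3 members with the lowest wild type means had 2.01, 2.06 and 2.15 CPM, and genes left out by that limit alone began at 1.99, 1.98 and 1.97 CPM. Another 13 expressed genes reached the fold but had overlapping libraries. One of these, on chromosome 16, had 7.18, 1.17 and 0 CPM in wild type against 11.4, 3.65 and 7.40 CPM in *Ppddm1*. Overlap was the less selective condition, since 2098 of the 16919 expressed genes, or 12.4%, were higher in *Ppddm1* without overlap.

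In the fit across all genes and TEs, 66 of the 98 members were called higher in *Ppddm1*. A call needed an adjusted p under 0.05 (edgeR's quasi-likelihood test, Benjamini-Hochberg over the 20647 genes and TEs tested) and a fitted change of at least 2-fold, and 0.741% of all features tested were called higher. The members were chosen on the same contrast, so nothing is read from that count. The fitted log2 fold changes of the members ran from 0.90 to 2.62 with a median of 1.25, beside a median of 0.01 over the 19626 genes tested. Of the 32 members that were not called, 18 had a fitted change just under 2-fold and 22 had an adjusted p of 0.05 or more. The members not called had a median wild type level of 3.91 CPM and those called 5.55 CPM. The number called fell to 38 without wild type replicate 3 and to 37 without *Ppddm1* replicate 3, the deepest library of each genotype, and to 17 in batch 1 alone. Calls over all features were fewer in these fits too, with 0.366%, 0.382% and 0.181% called higher. Among genes called higher that were no members, 40 of 41 had a wild type mean under 2 CPM. The number of genes that met the rule itself was 161 without *Ppddm1* replicate 1, and 91 of the 98 members were among them. Without wild type replicate 1 it was 135, with 69 of the 98 members, and without wild type replicate 2 it was 122, with 79.

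Genes were also chosen on 1 batch and read in the other, whose libraries took no part in that choice but did take part in choosing the members. The rule was applied to the 4 libraries of batch 1 alone, which chose 142 genes, 80 of them members. The libraries of batch 2, replicate 3 of each genotype, were then read for the same genes. *Ppddm1* was above wild type in 128 of the 142 (90.1%), against 53.0% of all genes expressed in batch 1. It was at least 2 times wild type in 60 (42.3%), against 2.17%. The median ratio in batch 2 was 1.73, beside 1.02 over all genes expressed in batch 1. In batch 1, where the genes were chosen, their median ratio was 2.33, so most of them pointed the same way in the other batch but by less. Among the 16 chosen genes with a batch 1 wild type level of at least 20 CPM, all 16 were higher in batch 2 with a median ratio of 1.78. Among the 48 at 5 to 20 CPM, 41 were higher with a median of 1.88, and among the 78 at 2 to 5 CPM, 71 were higher with a median of 1.56. Over all expressed genes of these ranges, in the same order, the medians in batch 2 were 1.03, 1.01 and 0.981. The shares over all genes given above were not matched for level, and 78 of the 142 chosen genes lay at 2 to 5 CPM. Batch 2 has 1 library of each genotype, so its ratios have no replicate error and no test was made. The shares describe the 142 genes, of which 62 are no members, and genes are not replicates.

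**Figure D5:**
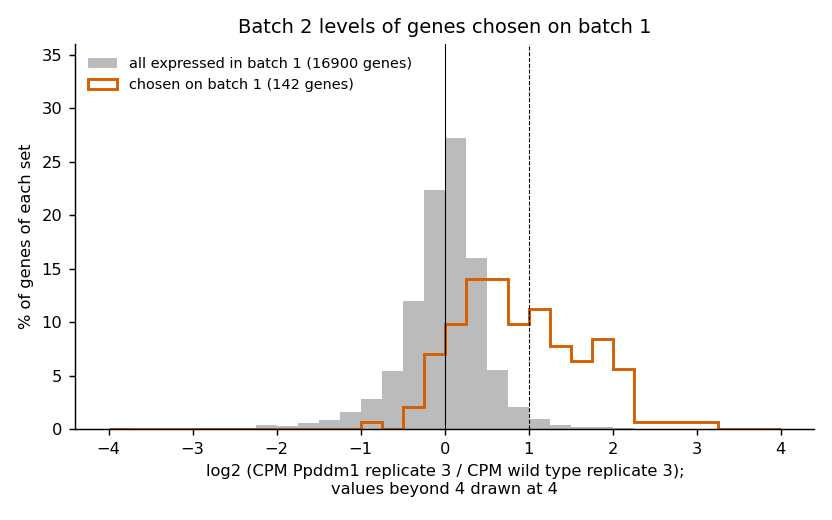
Distribution of the log2 ratio of *Ppddm1* replicate 3 to wild type replicate 3 (x axis) for the 142 genes chosen on batch 1 alone (orange line) and for all 16900 genes expressed in batch 1 (grey), each as a percentage of its set (y axis), with the solid line at no difference and the dashed line at 2-fold. Of the chosen genes, 128 lie to the right of the solid line and 60 reach the dashed line.

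The reverse choice was read in the same way. Batch 2 alone has no replicates, and 217 genes with at least 2 CPM in wild type replicate 3 were 2-fold higher or more in *Ppddm1* replicate 3. In batch 1, both *Ppddm1* libraries were above both wild type libraries in 123 of them (56.7%), against 21.3% of all genes expressed in batch 2. Their batch 1 means were at least 2-fold apart in 56 (25.8%), against 1.29%. These sets were not matched for level either. The median batch 1 ratio was 1.44, beside 2.29 in batch 2. The genes chosen in both batches numbered 51, and 50 of these were members. Such genes meet the full rule by construction, except for the lack of overlap between libraries of different batches, so that count is no separate result.

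The members were spread over the genome. The identifiers give the chromosome and the order of genes along it, and members were found on 26 of the 27 chromosomes and on none of the unplaced scaffolds. They made up 0.579% of all expressed genes. Chromosome 1 held 12 members (1.07% of its expressed genes), chromosome 11 held 9 (1.28%), chromosome 3 held 8 (0.838%) and chromosome 7 held 7 (1.01%). Chromosomes 9, 15, 16, 17 and 24 held 1 each and chromosome 27 none. Chromosome 17, which carries PpDDM1, was thus not rich in members, with 0.172%.

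Genes beside the members had a median ratio close to that of other genes. The nearest expressed gene on each side that was no member gave 193 neighbours. Their median ratio of *Ppddm1* to wild type was 1.06 with quartiles of 0.919 and 1.22, beside a median of 1.03 with quartiles of 0.890 and 1.16 over all expressed genes that were no members. A higher mean in *Ppddm1* was found in 119 neighbours (61.7%), beside 56.5% of the other expressed genes. Of the neighbours, 34 (17.6%) were higher in *Ppddm1* without overlap and 18 (9.33%) were lower without overlap, beside 11.9% and 11.6% of the other expressed genes. The difference of these shares was not tested. Only 1 pair of members lay side by side among the expressed genes.

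That pair is on chromosome 11 and was looked at after its values had been seen. Of the pair, the more abundant gene, ranked 14 by ratio, had 9.70, 12.4 and 8.55 CPM in wild type replicates 1 to 3 and 28.4, 47.5 and 32.6 CPM in the *Ppddm1* replicates, a ratio of 3.54. The other had means of 2.06 ± 0.854 and 6.18 ± 1.18 CPM (SD, n = 3 each), a ratio of 2.999. The expressed gene just before the pair in the order of identifiers had 2.38 ± 1.31 CPM in wild type against 7.22 ± 4.68 CPM in *Ppddm1*. Its ratio was 3.03, but *Ppddm1* replicate 1 fell within the range of its wild type libraries and it was no member. The expressed genes that flank these 3 had ratios of 1.03 and 1.37. Reads with several matches were assigned at random, so if these neighbouring genes are near-identical copies their counts are not separate. Their sequences were not analysed here.

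The same rule turned round, for genes with at least 2 CPM in *Ppddm1* and a wild type mean 2 times higher, gave 377 genes of 16817, with a median ratio of 2.55. Applied to TEs, the rule gave 8 of the 375 TEs with a wild type mean of at least 2 CPM, or 2.13%. Their ratios ran from 2.03 to 6.86 and their wild type means from 2.34 to 7.28 CPM. Among genes with a wild type mean of 2 to 5 CPM the share that met the rule was 2.78%. TEs and genes were not matched for level.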

How the data were processed

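RNA-seq reads of 6 libraries were trimmed by the authors (Trim Galore 0.6.0, cutadapt 1.15) and aligned to the v3.3 assembly by STAR 2.7.0f, versions as in the submitters' processing notes. A read matching several places was given to 1 of them at random. How reads were counted, and with what use of strand, is not given in the sources used here, so near-identical, overlapping or antisense genes may share reads. The authors deposited raw counts for genes and TEs in 1 table, with no normalization.

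CPM is the count divided by the column total over genes and TEs, times 1000000. The members and lists were chosen with earlier results of these data known. The 20647 features whose counts over the 6 libraries summed to 10 or more were fitted in edgeR 4.0.16 under R 4.3.3 (TMM, robust quasi-likelihood fit, genotype alone), and the test was checked on simulated data. Limma is the tool named by the study. Alternatives covered the scaling, thresholds, filters, batch, replicate block, DESeq2 1.42.0, limma-voom (limma 3.58.1) and each library left out. Besides PpDDM1, the identifiers printed are those of the member with the highest ratio and the member with the largest gain, since no table used here names the genes. The batch readings compare libraries and not replicates. Depth ran from 2784259 to 10536543 counts. The total of *Ppddm1* replicate 3 is above the library size that the study lists for it, for a reason not known here. The other totals are below their listed sizes, farthest in wild type replicate 1 and next in *Ppddm1* replicate 1. Libraries of the same genotype all differed by more than counting noise (chi-square per degree of freedom from 1.90 to 8.36). Figures were drawn with matplotlib 3.10.9.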

Additional observations from a re-analysis of the deposited data

How the results depend on the processing

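The number of genes that met the rule depended on its limits. It was 419 at 1.5 times and 23 at 3 times, 49 with a wild type mean of at least 5 CPM and 29 at 10 CPM, 14 when the lowest *Ppddm1* library had to be 2 times the highest wild type library, and 36 as a paired rule, in which libraries of the same replicate number had to be 2-fold apart. Other scalings gave 87 to 102 genes, but the genes were not all the same ones. The 102 genes found with all libraries thinned to the smallest total held 79 of the 98 members, and the 100 found with medians in place of means held 80. With 1 library left out it ran from 94 (without *Ppddm1* replicate 2) to 161 (without *Ppddm1* replicate 1), and the members among them from 69 (without wild type replicate 1) to 91 (without *Ppddm1* replicate 1). Members called by edgeR, 66 of 98, ran from 37 (without *Ppddm1* replicate 3) to 72 (without *Ppddm1* replicate 1) with 1 library left out, while 0.382% and 0.920% of all features were called higher, against 0.741% with all libraries. They were 58 with batch as a term (0.572% of all features), 17 in batch 1 alone (0.181%) and 77 with no filter beyond 1 count (0.670%). With the replicate block they were 78, including all 66, and 0.944% of all features were called higher. Deviations from the genotype means correlated at 0.34, 0.28 and -0.01 between libraries numbered 1, 2 and 3, and from -0.37 to 0.27 between different numbers. For replicates 1 and 2 the same number gave the highest value, and for replicate 3 it did not. The main fit did not take the numbers as pairs, and whether they stand for pairs was not tested. Of genes chosen on batch 1, 100% were higher in batch 2 with a wild type minimum of 10 CPM (35 of 35) or a fold of 3 (22 of 22). Of genes chosen on batch 2, 64.7% (44 of 68) and 74.4% (32 of 43) did not overlap in batch 1 under the same limits. Over all genes at the 2 CPM minimum, which the fold of 3 kept, these shares were 53.0% and 21.3%. The shares over all genes at 10 CPM were not computed, so nothing is read from the higher values. The ratio of the summed levels and the median fitted change were read again for the chosen members under 11 and 14 alternatives. One of the 11 left out the 5 members with the highest mean CPM. One of the 14, with at least 10 counts required in every library, fitted only 61 of the 98 members. The ratio and the median change each moved by less than their SD over the 3 comparisons of same-numbered libraries. So did the neighbours' median ratio under 2 alternatives. The members were chosen for this contrast, so their ratio and fitted change were largely fixed by the rule, and no stability is read from this. In 37 members at least 1 library had fewer than 10 counts, which limits the precision of their levels.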
